A study of Mus musculus with 6 samples.

Results

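Collagen genes are described here in the cerebellum of wild-type mice and of daDREAM mice, with 3 arrays per genotype. The members are all probe sets that the platform annotation gives exactly 1 symbol of the form Col, number, a, number, which makes 82 of 45037 probe sets and 42 of 18193 genes. Where a gene has several probe sets, the 1 with the highest mean signal stands for it, and values are RMA expression on the log2 scale, so that a difference of 1 is a doubling. The labels give the genotypes as Wild Type and daDREAM, the tissue as dissected and frozen cerebellum, and each array as an independent biological replicate. DREAM, the product of Kcnip3, is a calcium-binding transcriptional repressor that binds the downstream regulatory element of its targets, and daDREAM is a mutant whose repression does not yield to calcium. The labels used here give neither the promoter and cell types of the transgene nor the strain, age or sex of the mice.

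Collagens are trimers whose chains wind into a triple helix built on a repeat with glycine at every 3rd residue. Fibrillar collagens form the banded fibres of connective tissue, collagen IV forms the sheet of basement membranes, collagen VI forms beaded filaments, and other members sit on fibrils, in networks or in the plasma membrane. In the brain, most collagen lies in the meninges and in the basement membranes of blood vessels and of the pia, and a few members, such as Col19a1 and Col25a1, are made by neurons. The comparison asks whether collagen transcripts of the cerebellum differ in the presence of daDREAM. In bulk tissue, fewer cells of a type and less RNA per cell cannot be told apart.

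The promoters of 6 members are shown. They belong to collagen IV and VI chains that assemble together and to Col23a1, whose arrays did not overlap between the genotypes. Without overlap, 1 of 42 collagen genes lay higher in daDREAM and 0 lower, where the shares over all genes were 3.55% and 2.04%. The sequences are RefSeq's, on build GRCm38.p6, and run 5′ to 3′ on the gene's own strand from 250 bases before the start to 50 after it. Col4a1 (chr8:11312777-11313076, minus strand) and Col4a2 (chr8:11312555-11312854, plus strand) lie head to head, and the 78 bases that both windows share are in capitals.
Col4a1: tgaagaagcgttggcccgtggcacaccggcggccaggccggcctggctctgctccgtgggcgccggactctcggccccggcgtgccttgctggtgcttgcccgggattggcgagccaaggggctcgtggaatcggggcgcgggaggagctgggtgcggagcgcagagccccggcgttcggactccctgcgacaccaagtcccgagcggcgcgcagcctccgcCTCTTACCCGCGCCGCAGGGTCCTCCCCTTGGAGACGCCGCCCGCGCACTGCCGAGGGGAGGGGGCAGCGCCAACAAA
Col4a2: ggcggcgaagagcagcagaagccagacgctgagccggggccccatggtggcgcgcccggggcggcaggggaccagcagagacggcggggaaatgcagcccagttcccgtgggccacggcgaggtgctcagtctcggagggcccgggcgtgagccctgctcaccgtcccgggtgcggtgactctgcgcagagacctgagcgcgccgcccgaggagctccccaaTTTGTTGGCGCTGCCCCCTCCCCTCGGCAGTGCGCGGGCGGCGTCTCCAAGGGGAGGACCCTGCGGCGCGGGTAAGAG
In the windows of Col6a1 (chr10:76725995-76726294, minus strand), Col6a2 (chr10:76623581-76623880, minus strand), Col6a3 (chr1:90843922-90844221, minus strand) and Col23a1 (chr11:51289670-51289969, plus strand), capitals mark GTCA, the core of the downstream regulatory element, on either strand, so that it also reads TGAC.
Col6a1: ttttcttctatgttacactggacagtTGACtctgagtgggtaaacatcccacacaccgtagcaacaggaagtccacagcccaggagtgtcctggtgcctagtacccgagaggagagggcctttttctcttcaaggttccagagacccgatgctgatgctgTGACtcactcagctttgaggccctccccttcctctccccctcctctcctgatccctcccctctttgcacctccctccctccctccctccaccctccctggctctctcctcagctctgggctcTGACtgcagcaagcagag
Col6a2: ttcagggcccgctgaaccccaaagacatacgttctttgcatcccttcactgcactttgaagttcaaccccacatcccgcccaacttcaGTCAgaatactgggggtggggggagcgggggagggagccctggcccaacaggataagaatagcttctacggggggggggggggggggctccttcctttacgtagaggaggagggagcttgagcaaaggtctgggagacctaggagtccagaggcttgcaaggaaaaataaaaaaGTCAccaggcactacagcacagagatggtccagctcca
Col6a3: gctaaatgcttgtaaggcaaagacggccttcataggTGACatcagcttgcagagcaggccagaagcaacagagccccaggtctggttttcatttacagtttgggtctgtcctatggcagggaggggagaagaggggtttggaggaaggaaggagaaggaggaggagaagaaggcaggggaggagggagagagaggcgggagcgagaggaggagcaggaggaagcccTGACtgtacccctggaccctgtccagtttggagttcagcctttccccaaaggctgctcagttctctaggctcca
Col23a1: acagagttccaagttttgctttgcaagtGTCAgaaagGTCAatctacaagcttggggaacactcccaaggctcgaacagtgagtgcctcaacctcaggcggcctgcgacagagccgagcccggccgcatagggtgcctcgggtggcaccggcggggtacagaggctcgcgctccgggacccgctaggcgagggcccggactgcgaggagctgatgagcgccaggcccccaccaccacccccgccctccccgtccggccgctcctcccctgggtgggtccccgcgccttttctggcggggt

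Of the 42 members, 33 had at least 1 RefSeq promoter window and 9 did not (Col1a1, Col2a1, Col4a3, Col5a2, Col9a3, Col12a1, Col14a1, Col22a1 and Col26a1). The core GTCA was found on either strand in 26 of 36 member windows, 72.2%, and in 85.2% of all 32851 windows of the same length. It also lies inside the cyclic AMP response element TGACGTCA, which was found in 1 member window, that of Col24a1, and in 1.79% of all windows. Col24a1 and Col7a1 held the most matches, 6 each, and 9 genes, among them Col4a1, Col18a1, Col5a1 and Col27a1, held none in any window. Col6a1 held 3, Col6a3 and Col23a1 held 2 each, the window of Col6a2 shown above held 2, and a further, overlapping window of Col6a2 (chr10:76623355-76623654) also held 2. In addition, the window of Col4a2 held 1 outside the bases it shares with Col4a1. The median difference, daDREAM minus wild type, was 0.03 over the 24 genes with a match and -0.00 over the 9 without. A match of this length is a description of the letters and no evidence of binding.

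No collagen gene passed the test between the genotypes, in a fit where the lowest adjusted p of all probe sets was 0.998. With limma, 0 of 42 members had an adjusted p under 0.05, where the background over all 45037 probe sets was 0%, and the adjusted p of the members was 0.998 or 1. At an unadjusted p under 0.05 the gene-level count was also 0 of 42, the lowest p being 0.0689 for Col6a3, and 1 of the 82 collagen probe sets reached it, where the background was 1.81%. The difference was above 0 in 21 members, below 0 in 20 and 0 in 1, and 51.2% of all genes had a difference above 0. The median difference was 0.01 for the collagen genes and 0.0067 for all genes (log2 units). Over the 26 members with a mean of at least 5, 15 lay above 0 and 10 below, with a median of 0.045, where all probe sets of that level had a median of -0.02 and 44.7% above 0. Over all 42 members, the median of 0.01 became 0.055 without wild-type replicate 3 and 0.056 without daDREAM replicate 1. The medians over all probe sets were then 0.022 and 0.027. With the mean of all probe sets of a gene in place of the brightest, 31 members were above 0 and 11 below, and 0 of 42 passed. The median was then 0.042 for the members and 0.014 for all genes, of which 54.3% were above 0. The even split of signs thus belongs to the brightest probe sets.

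For most members the difference in signal had a narrow interval at the probe set used. The 95% interval of the difference lay within 0.5 log2 units of 0, a factor of 1.41, for 33 of 42 genes. It reached past that limit on the upper side for 5 genes and on the lower side for 5, Col19a1 being among both. The differences ran from -0.16 for Col11a1 to 0.38 for Col6a3, with a median absolute size of 0.09. Signal was low for many members: 26 had a mean of at least 5 and 12 of at least 6, from 2.79 for Col24a1 to 8.07 for Col18a1. Probes differ in brightness, so the order of these levels is not an order of mRNA abundance, and without a detection call a dim probe set cannot be told from background. A narrow interval at a dim probe set therefore bounds its signal and not the transcript. Another probe set of a gene can also have a wider interval, as Col5a1 had at 1416740_at, from -0.08 to 0.84.

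**Figure D1:**
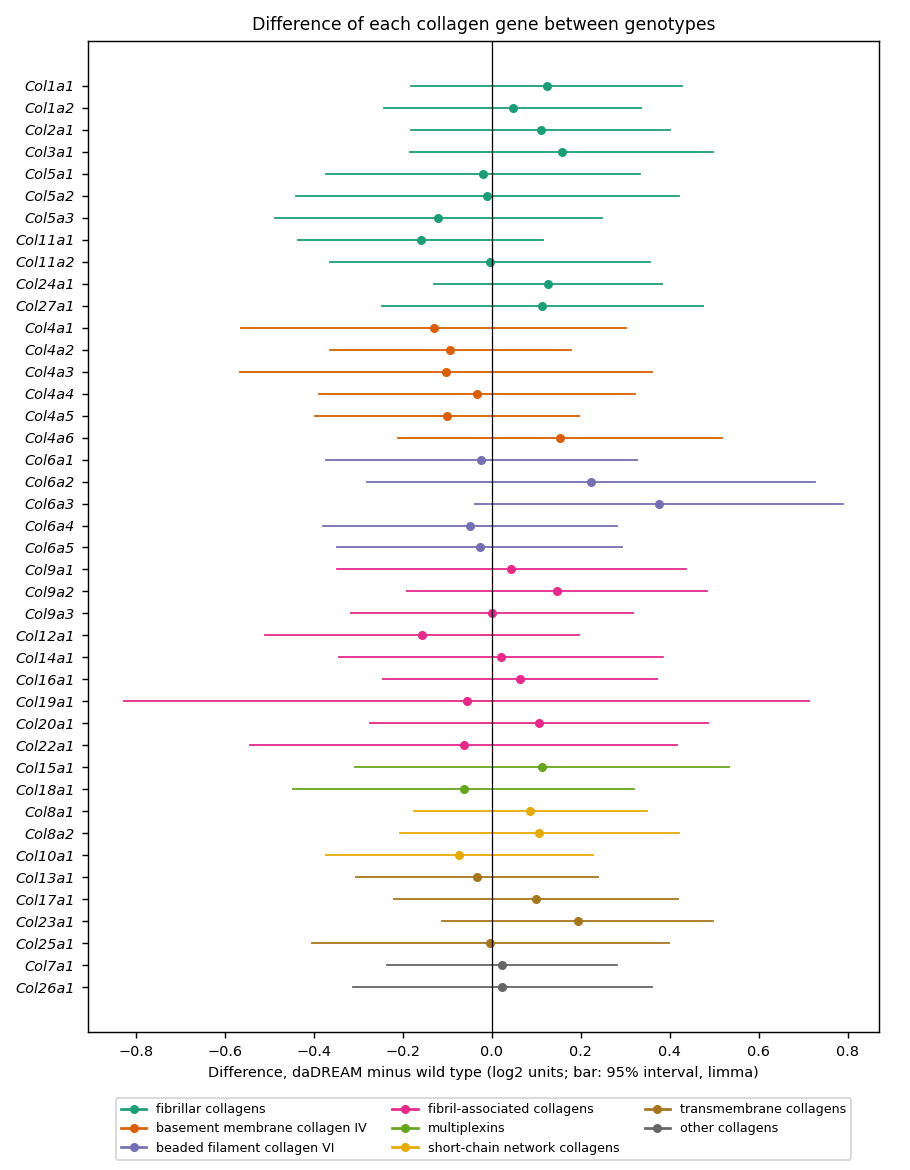
Difference between daDREAM and wild type for each of the 42 collagen genes, in log2 units (points), with the 95% interval from limma (bars), coloured by class. All intervals include 0, the points run from -0.16 for Col11a1 to 0.38 for Col6a3, and the widest interval is that of Col19a1, from -0.83 to 0.71.

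Among the 11 fibrillar collagens, 6 differences were above 0 and 5 below, with a median of 0.05 and a range from -0.16 to 0.16. Col1a1 and Col1a2 encode the chains of collagen I, the main fibre of meninges and other connective tissue. Col1a1 stood at 5.95, 5.98 and 5.67 in wild type and at 6.10, 5.92 and 5.95 in daDREAM, a difference of 0.12 (95% interval -0.18 to 0.43). Col1a2 stood at 7.77, 7.58 and 7.85 in wild type and at 7.79, 7.87 and 7.68 in daDREAM, a difference of 0.05 (-0.24 to 0.34). For both chains the arrays of the genotypes overlapped. Col3a1, whose product forms fibres with collagen I in soft tissue and in vessel walls, stood at 5.07, 5.23 and 4.83 in wild type and at 5.38, 5.13 and 5.09 in daDREAM. Its difference of 0.16 (-0.18 to 0.50) was among the larger ones of the class, and its arrays overlapped too.

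Collagen V and XI chains join fibrils of collagens I and II and limit their width. Col5a1 stood at 6.36, 6.30 and 6.20 in wild type and at 6.55, 6.03 and 6.22 in daDREAM, a difference of -0.02 (-0.37 to 0.33). The daDREAM arrays of Col5a1 lay on both sides of the wild-type ones. Col5a2 and Col5a3 differed by -0.01 and -0.12, and Col11a1 and Col11a2 by -0.16 and -0.00. Col2a1, the cartilage collagen, differed by 0.11 and Col24a1 by 0.13. Col27a1, a fibrillar member found mainly in cartilage, stood at 7.44, 7.37 and 7.58 in wild type and at 7.32, 7.56 and 7.85 in daDREAM, a difference of 0.11 (-0.25 to 0.47). Its lowest and its highest array were both daDREAM arrays, and without daDREAM replicate 3 its difference was -0.02.

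In collagen IV, the scaffold of basement membranes, 5 of the 6 differences were below 0, with a median of -0.10. These are values of the brightest probe sets, and dimmer ones of Col4a3, Col4a4 and Col4a5 gave differences above 0. Col4a1 and Col4a2, whose chains assemble into the form found in nearly all basement membranes, both lay below 0. Col4a1 stood at 6.77, 7.18 and 6.75 in wild type and at 7.04, 6.82 and 6.45 in daDREAM, a difference of -0.13 (-0.56 to 0.30). Its arrays overlapped, and the difference was 0.01 without wild-type replicate 2 and 0.03 without daDREAM replicate 3. At its further probe set, 1426348_at, the arrays stood at 6.37, 6.54 and 6.45 in wild type and at 6.32, 6.07 and 6.26 in daDREAM, a difference of -0.24 (-0.52 to 0.05). There all 3 daDREAM arrays lay below all 3 wild-type arrays, but the probe set did not pass (limma unadjusted p = 0.0901, adjusted p = 0.998). Col4a2 stood at 5.90, 5.90 and 5.96 in wild type and at 5.96, 5.72 and 5.80 in daDREAM, a difference of -0.09 (-0.36 to 0.18).

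The other 4 collagen IV chains replace Col4a1 and Col4a2 in particular basement membranes, such as those of the kidney. Like Col4a1 and Col4a2, they are neighbours in pairs in the RefSeq gene table, Col4a3 beside Col4a4 and Col4a5 beside Col4a6. Col4a3 and Col4a4 differed by -0.10 and -0.03 and had mean signals of 4.28 and 3.60. At dimmer probe sets, Col4a3 gave 0.23 (1438779_at, without overlap), and Col4a4 gave 0.17 (1425772_at) and -0.15 (1445328_at). Col4a5 differed by -0.10 (-0.40 to 0.20) and Col4a6 by 0.15 (-0.21 to 0.52), so the signs of this pair were opposite. At their dimmer probe sets both were above 0, at 0.16 for Col4a5 and 0.03 for Col4a6. Col4a6 stood at 5.27, 5.26 and 5.72 in wild type and at 5.46, 5.71 and 5.54 in daDREAM, with overlap.

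At the brightest probe set of each gene, collagen VI held the 2 largest differences of the family. Dimmer probe sets of Col5a1 and Col12a1 gave 0.38 and 0.32. The Col6a1, Col6a2 and Col6a3 chains assemble into 1 molecule that links basement membranes to the matrix around them. Col6a3 has 1 probe set, with a mean of 4.78. It stood at 4.61, 4.40 and 4.76 in wild type and at 4.62, 5.06 and 5.22 in daDREAM, a difference of 0.38 or 1.30-fold (-0.04 to 0.79). Its daDREAM replicate 1 lay among the wild-type arrays and the other 2 daDREAM arrays lay above them. Without daDREAM replicate 1 the difference was 0.55 (limma unadjusted p = 0.00467, adjusted p = 0.215), and it was 0.25 to 0.46 when any other array was left out. Low p-values were common without daDREAM replicate 1. There 7254 of 45037 probe sets had an unadjusted limma p under 0.05, against 817 with all arrays. Col6a2 stood at 6.68, 6.52 and 6.90 in wild type and at 6.46, 6.99 and 7.32 in daDREAM, a difference of 0.22 (-0.28 to 0.73). This gene too had daDREAM replicate 1 at the low end, and its difference was 0.46 without that array and 0.025 without daDREAM replicate 3.

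The third chain was unlike them. Col6a1 stood at 5.67, 5.55 and 5.80 in wild type and at 5.83, 5.74 and 5.38 in daDREAM, a difference of -0.02 (-0.37 to 0.33), with daDREAM replicate 3 the lowest of the 6 arrays. It was 0.11 without daDREAM replicate 3 and -0.11 without daDREAM replicate 1. Col6a1 and Col6a2 are neighbours in the RefSeq gene table. The intervals of the 3 genes overlap, and whether their differences differ from each other was not tested. The 2 probe sets of Col6a2 gave 0.22 and 0.19. Col6a4 and Col6a5, further chains of this type with mean signals of 4.42 and 3.00, differed by -0.05 and -0.03.

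**Figure D2:**
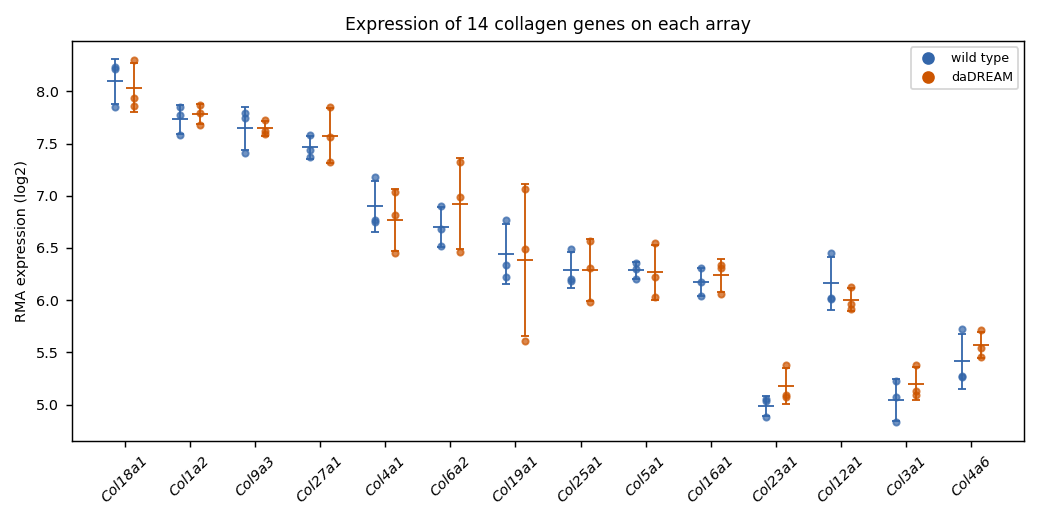
RMA expression (log2) on each array for 14 collagen genes, wild type in blue and daDREAM in orange; points are arrays and bars the mean and SD of 3 arrays. The 10 genes on the left have the highest mean signals, and the 4 on the right were added for their differences. The genotypes overlap at each gene except Col23a1, and the daDREAM arrays of Col19a1 spread from 5.61 to 7.06.

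The fibril-associated collagens had 5 differences above 0, 3 below and 1 at 0, with a median of 0.02. Col19a1, which hippocampal and other interneurons make, varied most of all members within a genotype. It stood at 6.34, 6.77 and 6.22 in wild type (SD 0.29) and at 7.06, 6.49 and 5.61 in daDREAM (SD 0.73), so that the highest and the lowest of the 6 arrays were both daDREAM. Its difference was -0.06 (-0.83 to 0.71), from -0.39 without daDREAM replicate 1 to 0.33 without daDREAM replicate 3. Its probe set 1456953_at gave the same order in daDREAM, at 6.03, 5.66 and 5.34, and a difference of -0.03. Its dim probe set 1430676_at did not, at 4.15, 4.17 and 4.12 in wild type and 4.27, 4.63 and 4.13 in daDREAM, a difference of 0.20 (-0.15 to 0.54). Col12a1, which decorates collagen I fibrils, stood at 6.01, 6.02 and 6.45 in wild type and at 5.96, 5.92 and 6.13 in daDREAM, a difference of -0.16 (-0.51 to 0.20). It shrank to -0.01 without wild-type replicate 3, the highest array.

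Col9a1, Col9a2 and Col9a3 encode the chains of collagen IX, which coats collagen II fibrils in cartilage. Col9a3 stood at 7.74, 7.79 and 7.41 in wild type and at 7.59, 7.73 and 7.62 in daDREAM, and the means were equal at 7.65 (interval -0.32 to 0.32). Col9a1 and Col9a2 differed by 0.04 and 0.15. Col16a1, another member of the class, stood at 6.31, 6.04 and 6.17 in wild type and at 6.06, 6.31 and 6.34 in daDREAM, a difference of 0.06 (-0.25 to 0.37). Col20a1, Col14a1 and Col22a1 differed by 0.11, 0.02 and -0.06.

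Col15a1 and Col18a1 are multiplexins, basement membrane collagens that carry heparan or chondroitin sulfate chains; the end of the Col18a1 product is released as endostatin, an inhibitor of vessel growth. Col18a1 stood at 8.21, 8.23 and 7.85 in wild type and at 8.30, 7.86 and 7.94 in daDREAM, a difference of -0.06 (-0.45 to 0.32). Its 2 groups covered nearly the same range. Its further probe set, 1418237_s_at, gave 0.12. Col15a1 differed by 0.11 (-0.31 to 0.53). Of the short-chain network collagens, Col8a1 and Col8a2, which partner in hexagonal sheets beneath some endothelia, differed by 0.09 and 0.11, and Col10a1, of growth plate cartilage, by -0.07.

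Col23a1, a transmembrane collagen, was the 1 gene of 42 whose arrays did not overlap. It stood at 5.03, 4.88 and 5.05 in wild type and at 5.07, 5.09 and 5.38 in daDREAM, a difference of 0.19 (-0.11 to 0.50), and did not pass (limma adjusted p = 0.998). All 3 daDREAM arrays were higher, the lowest of them by 0.02. Its probe set 1440911_at also separated the genotypes, at 4.69, 4.73 and 4.74 against 4.85, 4.79 and 4.95, and its dim probe set 1429210_at gave 0.03. Over all genes, 3.55% lay higher in daDREAM without overlap and 2.04% lower, and the collagen counts were 1 and 0 of 42. Without daDREAM replicate 3 the difference of Col23a1 was 0.093.

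Col25a1, a neuronal transmembrane collagen whose shed part binds amyloid, stood at 6.20, 6.18 and 6.49 in wild type and at 5.98, 6.31 and 6.57 in daDREAM, a difference of -0.00 (-0.40 to 0.40). Col13a1, of the neuromuscular junction, and Col17a1, of hemidesmosomes, were dim, with mean signals of 3.71 and 3.68, and differed by -0.03 and 0.10. Col7a1, the anchoring fibril collagen of skin, and Col26a1 both differed by 0.02. The daDREAM arrays of Col7a1 lay between the wild-type ones.

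The probe sets of a gene often disagreed. Of the 27 members with several probe sets, 17 had differences of both signs or a 0 among them, 8 had all above 0 (Col1a2, Col3a1, Col4a6, Col6a2, Col9a1, Col23a1, Col26a1 and Col27a1) and 2 had all below (Col4a1 and Col25a1). The median distance between the highest and the lowest difference within a gene was 0.18. It was widest for Col12a1, where 1434411_at, a dim probe set at a mean of 3.72, gave 0.32 (limma unadjusted p = 0.0373, adjusted p = 0.998) against -0.16 at the brightest. Col5a1 gave 0.38 at 1416740_at (-0.08 to 0.84), against -0.02 and 0.07 at its other probe sets. Of the 82 probe sets, 5 lay higher in daDREAM without overlap, where the background was 3.75%, and 3 lay lower, where it was 2.26%, and 6 of these 8 had a mean under 5.

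**Figure D3:**
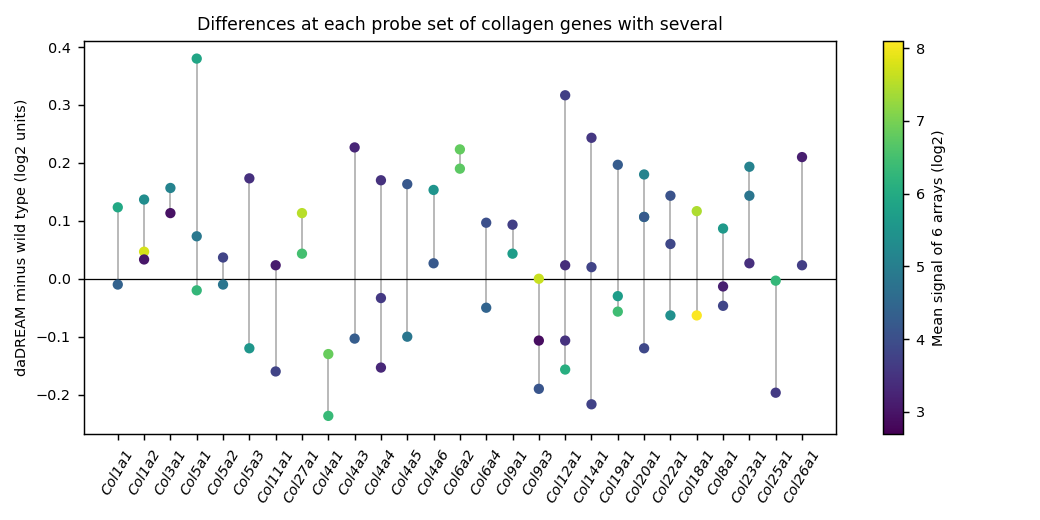
Difference between daDREAM and wild type (log2 units) at each probe set of the 27 collagen genes with several, coloured by mean signal over the 6 arrays; grey lines join the probe sets of a gene. Most genes have points on both sides of 0, and Col12a1 spans -0.16 to 0.32.

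The members did not move together along the genotypes. The collagen score of an array, the mean deviation of the 42 genes from their means over the 6 arrays, was -0.016, -0.051 and 0.027 in wild type and -0.037, 0.050 and 0.028 in daDREAM. These ranges overlap, and daDREAM replicates 2 and 3 and wild-type replicate 3 were the higher arrays. In daDREAM replicate 3, 15 of 42 members had their highest value, 35.7% against 26.7% of all genes, and 11 had their lowest, 26.2% against 27.2%. In daDREAM replicate 1, 13 members had their lowest value, 31.0% against 25.6% of all genes. The arrays also differed in the spread of all probe sets, with an interquartile range of 3.49 in daDREAM replicate 1 and 2.97 in daDREAM replicate 3, and 3.10 to 3.38 in wild type. Over the 6459 genes with a mean under 5, the same score was -0.14 in daDREAM replicate 1 and 0.15 in daDREAM replicate 3, and over the 16 collagen genes with such a mean it was -0.091 and 0.014. The part of this spread in the collagen values was not tested, and after renewed quantile normalization, which gives each array the same distribution, 21 members lay above 0 and 21 below.

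**Figure D4:**
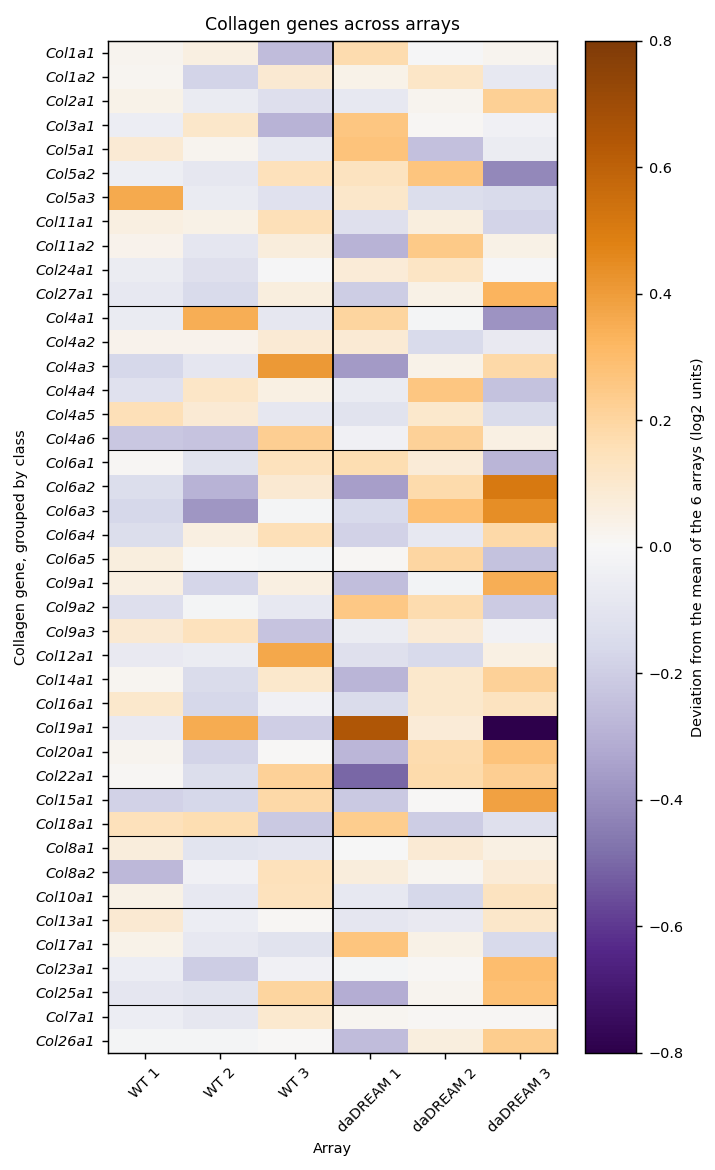
Deviation of each collagen gene on each array from its mean over the 6 arrays (log2 units), with genes grouped by class and the genotypes divided by a vertical line. Orange cells are above and purple cells below the gene's mean. No class is of 1 colour on all 3 arrays of a genotype, and the strongest cells are those of Col19a1 on daDREAM replicates 1 and 3.

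The genes that build, bind and break down collagen were counted from the same limma fit, and none of those measured passed after adjustment. Of 26 measured genes of collagen synthesis and crosslinking, 17 were above 0, with a median of 0.05. Serpinh1, the collagen chaperone of the endoplasmic reticulum, differed by 0.28 (-0.09 to 0.65) and Ppib, a prolyl isomerase that acts on collagen, by -0.05. Of 10 collagen receptors, 6 were above 0, with a median of 0.02. Ddr2, a receptor kinase for fibrillar collagen, differed by 0.27 (-0.40 to 0.94) and its relative Ddr1 by -0.18. Of 10 genes of collagen breakdown, 6 were above 0, with Mmp9, a gelatinase, at 0.24 and Timp4, a protease inhibitor, at -0.04.

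Basement membrane partners of collagen IV had 11 of 14 differences above 0 and a median of 0.15, where collagen IV had 1 of 6 above 0 and a median of -0.10. Lamb2, a laminin chain, stood at 6.12, 5.97 and 5.53 in wild type and at 6.31, 6.26 and 6.12 in daDREAM, a difference of 0.36 (-0.03 to 0.74). Nid1, which ties laminin to collagen IV, differed by -0.26 and Sparc by -0.06. Collagen-binding matrix proteins had 11 of 14 above 0 and a median of 0.08. Prelp, a proteoglycan that anchors basement membranes to collagen, differed by 0.51 without overlap (limma unadjusted p = 0.00405, adjusted p = 0.998), and fibronectin, Fn1, by 0.03. Whether these lists differ from the collagen classes was not tested.

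Markers of the cells that make collagen were read beside these values, and no marker passed. Meningeal fibroblast markers without collagens had 10 of 17 above 0, with scores of -0.090 to 0.014 on the wild-type arrays and 0 to 0.051 on the daDREAM arrays. Of these 17 markers, 4 lay higher in daDREAM without overlap and 0 lower, where the shares over all genes were 3.55% and 2.04%. The 4 were Igfbp2 and Igf2, secreted by the leptomeninges and by the choroid plexus, at 0.58 and 0.32, and Slc6a13 and Slc22a6, at 0.24 and 0.19. Below 0 were 7 markers, Foxc1 the furthest at -0.28. The collagen-binding fibroblast proteoglycans Dcn and Lum, also counted among the matrix proteins, differed by 0.04 and -0.03. Endothelial markers had 5 of 11 above 0 and mural cell markers 7 of 12, with medians of -0.01 and 0.02. Flt1, a receptor for vascular growth factor on endothelium, differed by -0.35 and lay lower in daDREAM without overlap (limma unadjusted p = 0.0372, adjusted p = 0.998), and Cldn5, a tight junction protein, differed by -0.18. Cdh5 and Slco1a4, also endothelial markers, went the other way, by 0.31 and 0.26, with overlap. Among mural genes, Anpep differed by 0.19 and the pericyte gene Rgs5 by 0.01. Endothelial scores ran from -0.089 to 0.050 in wild type and from -0.082 to 0.040 in daDREAM, and mural scores from -0.078 to 0.045 and from -0.060 to 0.048. Choroid plexus markers had 13 of 14 above 0, with scores of -0.32 to -0.059 in wild type and 0.058 to 0.28 in daDREAM, which did not overlap. Of these 14 markers, 7 lay higher in daDREAM without overlap, where the share over all genes was 3.55%. Sostdc1, a secreted BMP antagonist, differed by 1.07 (limma unadjusted p = 0.00141, adjusted p = 0.998), and Ttr, the thyroid hormone carrier of the choroid plexus, by 0.43. No marker was at 0, since RMA values have no 0, and the part of any of these cells in the collagen values was not tested.

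**Figure D5:**
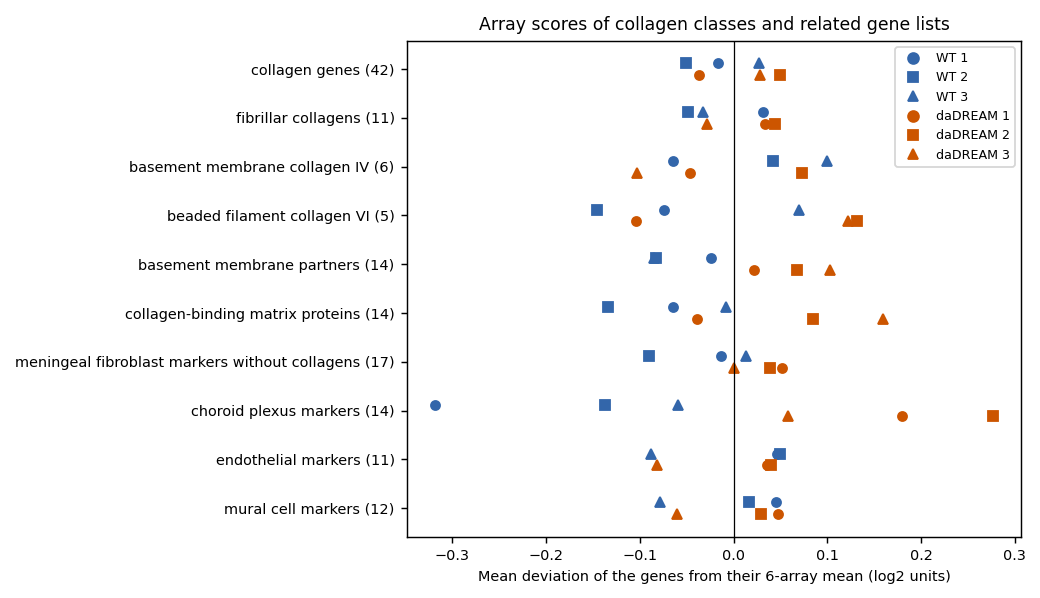
Score of each array, the mean deviation of a list's genes from their means over the 6 arrays (log2 units), for collagen genes, 3 collagen classes and related lists, with the number of measured genes in brackets; wild type in blue and daDREAM in orange, symbols marking the replicate number. The genotypes overlap for the collagen lists shown and separate for the choroid plexus markers and the basement membrane partners.

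Markers of cerebellar neurons were bright on all arrays, from a mean of 6.79 for Barhl1 to 12.43 for Pcp2, with a median difference of -0.03 and 0.28 at Barhl1, as the tissue label says. Kcnip3, measured by 2 probe sets, differed by 0.10 and 0.11 and did not pass; the sources do not say whether the transgene carries the sequence these probes read, so Kcnip3 is no check of the genotypes. The mean of 18 hybridization control probe sets, a technical signal, was 8.99, 8.99 and 9.48 in wild type and 9.47, 10.14 and 10.47 in daDREAM. It was thus higher on most daDREAM arrays, and a technical difference that goes with genotype cannot be told apart from it. Its part in the collagen values was not tested.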

How the data were processed

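Total RNA from 6 cerebellar samples was hybridised to Affymetrix Mouse Genome 430 2.0 arrays, per the labels' protocols. The authors deposited log2 values, 1 per probe set and array, made with RMA in affy per the submitters' processing notes. RMA equalises probe distributions, so a change shared by most genes would be hidden. After 64 Affymetrix controls were set aside, of 45037 probe sets, 34945 have 1 symbol in the platform annotation, 932 several and 9160 none. For companion lists, the RefSeq symbol (GRCm38.p6) was used for the 34741 of these whose gene identifier is in RefSeq. The genotypes were compared by limma (version 3.58.1, R 4.3.3, eBayes after lmFit, 2-sided). Adjustment was by Benjamini-Hochberg over all probe sets, at a threshold of 0.05. The procedure was checked on simulated data whose added change was far larger than any collagen difference here. That check does not cover small differences. The number of arrays limits precision: the median standard error was 0.15. The genes given in full are the 10 with the highest mean, and those with a mean of at least 5 that did not overlap or were among the 5 largest differences. From companion lists the largest difference and the highest mean are named. Others, among them Col6a3, Nid1, Dcn and Lum, were chosen after their values were seen. Members and lists were chosen with earlier results of these data known.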

Additional observations from a re-analysis of the deposited data

How the results depend on the processing

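No alternative gave a call: 0 collagen genes and 0 probe sets passed limma after adjustment in any setting. The settings were the replicate block, means of at least 5 or 6, median centring, a robust trended prior and quantile normalization run again. Unspecific probe sets were also left out, and each array in turn. In these settings 324 to 7254 probe sets had an unadjusted limma p under 0.05. The 7254 came without daDREAM replicate 1, and the next highest count, 1361, came with quantile normalization run again. Whether the replicate numbers pair the samples cannot be told from these arrays. Deviations from the genotype means correlated between same-numbered arrays at 0.12, -0.28 and 0.32. With the replicate block 21 members were above 0, and 1093 probe sets had an unadjusted limma p under 0.05, against 817 without it. Median centring gave 18 members above 0 and 24 below, with a median of -0.02 for members and for all. A mean of at least 5 gave 15 of 26 above 0 (median 0.045), and a mean of at least 6 gave 5 of 12 above 0 and 6 below (median -0.0017). With 1 array left out, the median collagen difference ran from 0 to 0.056, and 8 of the 14 genes given in full turned sign: Col25a1 from -0.15 to 0.15, Col5a1 from -0.16 to 0.098, Col18a1 from -0.20 to 0.023, Col1a2 from -0.03 to 0.11, Col4a1 from -0.27 to 0.03, Col19a1 from -0.39 to 0.33, Col16a1 from -0.0033 to 0.15 and Col27a1 from -0.023 to 0.24. Col9a3, whose difference was 0 with all arrays, was not counted and ran from -0.12 to 0.072 with 1 array left out. Col25a1 turned to 0.013 after quantile normalization. With the mean of a gene's probe sets Col18a1 gave 0.027, Col19a1 0.037, Col5a1 0.14 and Col12a1 0.019. The cause was not tested. Dim probe sets limit what 16 members can show.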
